A study of Homo sapiens with 13 samples.

Results

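The genes described here are 10 inflammatory cytokine and chemokine genes, IL6, CXCL8, CXCL1, CXCL2, CXCL3, IL1A, IL1B, LIF, IL11 and CCL5, chosen by name from the 19894 protein-coding genes with a canonical transcription start site (TSS) in GENCODE release 44 on hg19. All 10 were found in the annotation. The cells were MDA-MB-231, an established human cell line from a triple-negative breast cancer of the basal B type, grown in standard culture with no treatment, so that a single condition was measured and no contrast between conditions exists. Chromatin immunoprecipitation and sequencing (ChIP-seq) was done for H3K4me3, H3K27ac, H3K4me1, RNA polymerase II (Pol II) and CTCF with 2 libraries each, and for p300/CBP with 1 library, and the authors deposited 1 list of peak positions per antibody after merging the libraries. The lists carry no height, score or replicate value and the depth behind them is unknown, so every statement below is about the presence, position or width of a peak, and neither an error between replicates nor a test can be given.

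H3K4me3 marks the start sites of genes that are active or poised, H3K27ac marks active promoters and enhancers, and H3K4me1 marks enhancers and the flanks of promoters. The acetyltransferases p300 and CBP are recruited by transcription factors, while CTCF binds insulators and the anchors of chromatin loops. Inflammatory cytokine genes are classical targets of NF-κB, AP-1 and C/EBP factors, and many of them are induced within a short time by cytokines or microbial products from chromatin that is already marked. IL-6, CXCL8 and the CXCR2 ligands CXCL1, CXCL2 and CXCL3 are known to be secreted by aggressive breast cancer cells.

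A promoter window was defined as the 3 kb centred on the TSS, and 1 shared bp counted as overlap. H3K4me3 and H3K27ac were each found at 6 of the 10 promoter windows, those of IL6, CXCL8, CXCL1, CXCL2, CXCL3 and IL11, beside 62.7% of all protein-coding genes for H3K4me3 and 61.4% for H3K27ac. Pol II was also found at 6 windows, beside 58.4% of all genes, but LIF took the place of CXCL8 among them. H3K4me1 was present at 9 windows, all but that of CCL5, beside 59.3% of all genes. In a 1 kb window H3K4me1 was left at 4 genes, CXCL8, IL1A, IL1B and LIF, and when only Pol II peaks of the median width (850 bp) or more were kept, 3 genes had Pol II, CXCL3, LIF and IL11. CTCF lay in the windows of IL6, CXCL2 and CXCL3, or 3 of 10, beside 17.6%, and p300/CBP in that of CXCL8, or 1 of 10, beside 0.769% of all genes, which is 153 genes.

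The combinations of marks divided the 10 genes into 5 kinds of window. IL6, CXCL1, CXCL2, CXCL3 and IL11 carried H3K4me3, H3K27ac and Pol II together, as did 56.2% of all genes. CXCL8 carried H3K4me3 and H3K27ac without Pol II, a state found at 3.79% of all genes, but neither mark was left there when only peaks of the median width (1150 bp for H3K4me3 and 1300 bp for H3K27ac) or more were kept. IL1A and IL1B had H3K4me1 as their only mark, a state found at 4.29%. LIF had H3K4me1 and Pol II across the whole window and no H3K4me3 or H3K27ac in it. CCL5 had no peak of any list, as did 28.0% of all genes.

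**Figure D1:**
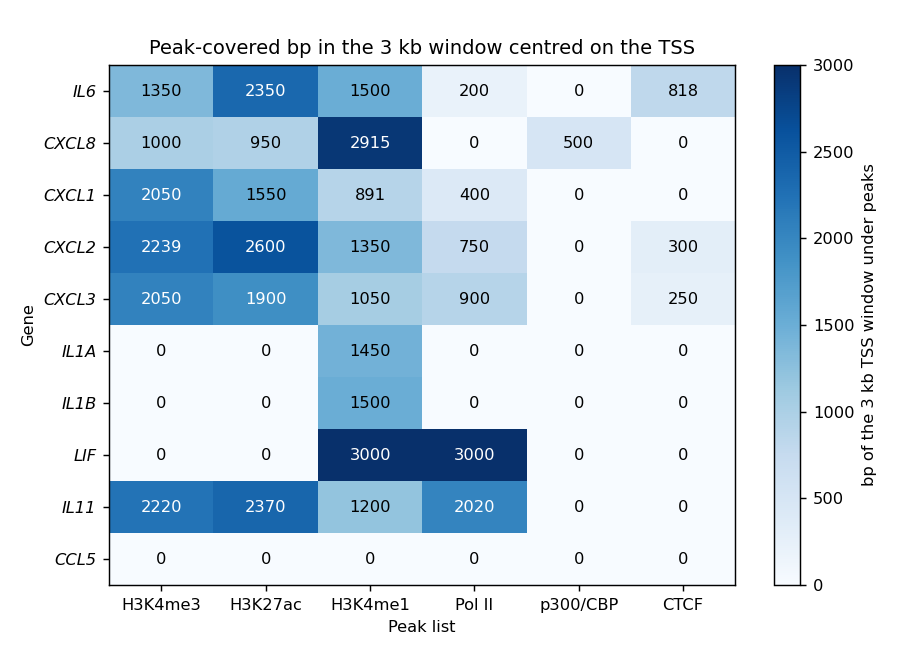
Base pairs of the 3 kb promoter window under peaks, for each of the 10 genes (rows) and each peak list (columns). H3K4me1 covers 3000 bp of the LIF window and 1450 bp of the IL1A window, CXCL8 is the only gene with p300/CBP (500 bp), and the row of CCL5 is 0 throughout.

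Away from the promoter, an H3K4me1 region outside the promoter windows of all protein-coding genes was counted as a candidate enhancer. It was a candidate active enhancer (cAE) if it shared at least 1 bp with H3K27ac and a candidate inactive enhancer (cIE) if it shared none. Promoters of long non-coding RNA genes were not left out. Within the gene and 100 kb either side, 9 of the 10 genes had a cAE, beside 80.6% of all genes, and the exception was CXCL1. At least 1 p300/CBP peak lay within the same distance of 7 genes, beside 37.5% of all genes, the exceptions being CXCL1, IL11 and CCL5. These genes are not separate cases, since CXCL2 and CXCL3 were counted through the same peaks and IL1A and IL1B through shared ones. Within 25 kb the p300/CBP count fell to 3 genes, IL6, CXCL8 and CXCL2. CTCF lay within 100 kb of all 10 genes, as it did for 97.2% of all genes. The 10 neighbourhoods together held 37 distinct cAEs, 19 p300/CBP peaks, 39 CTCF peaks and 70 H3K27ac regions, with those shared by neighbouring genes counted once. The count of cAEs depended on the definition, with 67 when promoter windows were not left out, 20 when H3K27ac had to cover at least 50% of the region and 19 with peaks of the median width or more, and within 25 kb there were 15 cAEs and 5 p300/CBP peaks.

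H3K27ac covered a median of 13.8 kb of the neighbourhood of the 10 genes, from 1.55 kb at CXCL1 to 42.7 kb at LIF, beside a median of 9.75 kb over all genes (quartiles 4.2 and 18.3 kb). The median number of p300/CBP peaks was 2, beside 0 for all genes, and the median number of cAEs was 4, beside 3. The nearest p300/CBP peak lay a median of 45.8 kb from the TSS, beside 198 kb for all genes. In these medians a region shared by neighbouring genes was counted for each of them. H3K4me3 covered a median of 4.1 kb, beside 6.7 kb for all genes (quartiles 3.1 and 11.5 kb), and Pol II 4.4 kb, beside 5.08 kb (quartiles 1.2 and 16.9 kb), so that both medians lay between the quartiles of all genes.

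**Figure D2:**
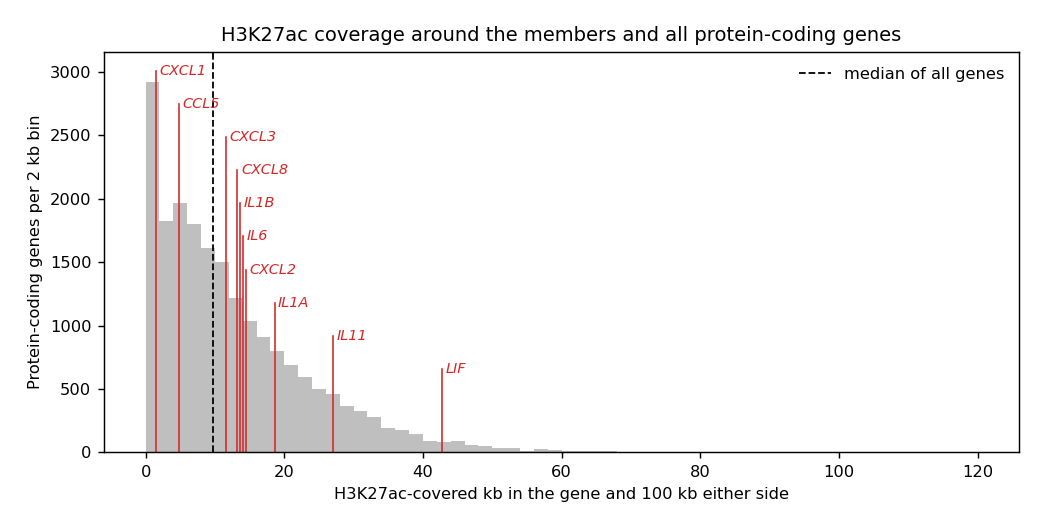
Histogram of the H3K27ac-covered length (kb) in the gene and 100 kb either side for all 19894 protein-coding genes, with the 10 genes marked by red lines whose height has no meaning. The dashed line is the median of all genes, 9.75 kb. LIF (42.7 kb) and IL11 (27.1 kb) lie to the right, and CXCL1 (1.55 kb) and CCL5 (4.8 kb) lie below the median.

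The chemokine cluster on chromosome 4 holds CXCL8, CXCL1, CXCL3 and CXCL2 among other CXC chemokine genes. Proteins of this group attract neutrophils through the receptors CXCR1 and CXCR2. The promoters of CXCL1, CXCL2 and CXCL3 are related copies, and the 200 bp upstream of their TSSs are shown to display this, each on the strand of the gene, with matches to the NF-κB motif in capitals (hg19, chr4:74734910-74735109 on the plus strand for CXCL1, chr4:74964913-74965112 on the minus strand for CXCL2 and chr4:74904407-74904606 on the minus strand for CXCL3).
CXCL1: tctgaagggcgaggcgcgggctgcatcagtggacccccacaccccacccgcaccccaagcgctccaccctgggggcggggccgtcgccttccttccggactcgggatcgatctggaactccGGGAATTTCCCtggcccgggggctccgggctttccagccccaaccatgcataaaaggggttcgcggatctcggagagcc
CXCL2: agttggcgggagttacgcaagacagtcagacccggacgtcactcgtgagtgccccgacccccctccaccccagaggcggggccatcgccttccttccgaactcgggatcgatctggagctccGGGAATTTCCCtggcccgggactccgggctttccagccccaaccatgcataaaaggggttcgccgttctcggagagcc
CXCL3: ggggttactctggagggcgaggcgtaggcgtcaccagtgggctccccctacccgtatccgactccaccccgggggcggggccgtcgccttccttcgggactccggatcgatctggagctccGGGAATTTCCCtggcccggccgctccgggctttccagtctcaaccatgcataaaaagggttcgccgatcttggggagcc

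In a global alignment these stretches were 80.8% identical between CXCL1 and CXCL3, 77.5% between CXCL2 and CXCL3 and 77.2% between CXCL1 and CXCL2, while CXCL8 reached 45.1%, 46.0% and 46.5% with CXCL1, CXCL2 and CXCL3. Each of the related promoters holds the same 11-base stretch, in which overlapping matches lie on the opposite strands and start 79 bases upstream in CXCL1 and CXCL3 and 78 in CXCL2. The NF-κB motif was searched as GGGRNWYYCC on both strands (R is A or G, W is A or T, Y is C or T, N is any base). It was matched in the 200 bp upstream of 5 of the 10 genes, those of IL6, CXCL1, CXCL2, CXCL3 and CCL5, beside 4.82% of all genes. Sites that depart from this pattern were not counted, such as tggaatttcc upstream of CXCL8, which differs at its first base. The lack of a match is therefore not the lack of a site. A match is a description of the letters, not evidence of binding, and CCL5, which matched at 2 places, had no peak in its window.

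The similarity of the copies bears on the peaks, since the authors kept uniquely mapped reads. Of the 32-base words in the promoter window, 8.29% at CXCL2, 7.34% at CXCL3 and 5.22% at CXCL1 occurred elsewhere in the genome, and in the central 1 kb the shares were 20.8%, 18.7% and 8.20%. CXCL2 and CXCL3 shared 178 such words. At CXCL8 and IL6 no word was repeated. The length of the reads was not given in the sources used here, and the part of repeated sequence in the peaks was not tested.

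CXCL8 encodes interleukin-8, the best known neutrophil attractant. A p300/CBP peak of 400 bp, chr4:74606051-74606451, spanned its TSS, from 0.235 kb upstream to 164 bp downstream, and a second one of 100 bp lay 0.715 kb downstream inside the gene. The marks on the flanks were asymmetric. H3K27ac ended where the p300/CBP peak began, 0.236 kb upstream of the TSS, and H3K4me3 began 15 bp downstream of the TSS and ran for 1000 bp into the gene, so that no base carried both H3K27ac and H3K4me3. H3K4me1 spanned the whole arrangement with a region of 3750 bp. No Pol II peak was found in the window, and the nearest one lay 35.7 kb upstream. The 200 bp upstream of this TSS (hg19, chr4:74606086-74606285, plus strand), which make up most of the upstream part of the p300/CBP peak, are shown with the AP-1 match, at bases 137 to 131 upstream, in capitals.
CXCL8: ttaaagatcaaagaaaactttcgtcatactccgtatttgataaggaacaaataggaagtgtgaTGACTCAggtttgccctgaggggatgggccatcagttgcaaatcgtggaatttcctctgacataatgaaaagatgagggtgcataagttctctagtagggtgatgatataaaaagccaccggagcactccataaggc

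AP-1 is the dimer of Fos and Jun proteins, and its motif was searched as TGANTCA on both strands. It was matched in the 200 bp upstream of CXCL8, IL1A and IL11, or 3 of 10 genes, beside 3.72% of all genes. A TATA box, searched as TATAAA on the strand of the gene, lay 31 to 26 bases upstream of CXCL8 and at a like distance upstream of LIF and CCL5, or 3 of 10, beside 5.94% of all genes.

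Including those at the gene itself, the neighbourhood of CXCL8 held 5 p300/CBP peaks, and 3.07% of all genes had more. All 4 cAEs lay upstream of the gene. The widest, chr4:74566701-74575451, measured 8750 bp, lay 30.8 to 39.6 kb upstream, was covered by H3K27ac over 6350 bp and held 2 p300/CBP peaks and the only Pol II peak of the neighbourhood, which covered 150 bp. The annotated long non-coding RNA UMLILO begins 30.3 kb upstream of CXCL8, at the edge of this cAE. Another long non-coding RNA gene, ENSG00000289530, begins 31 kb upstream of CXCL8, inside the cAE. The 3 kb around its TSS held 1758 bp of H3K27ac and 258 bp of p300/CBP, so that its promoter and this part of the cAE cannot be told apart. A further cAE of 5350 bp lay 9.94 to 15.3 kb upstream and held a CTCF peak but no p300/CBP.

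Between CXCL8 and CXCL2 the cluster was largely free of active marks. The 162 kb from CXCL6 to CXCL5 held 1 H3K27ac region, 1 H3K4me3 region and 1 Pol II peak, all at the CXCL1 promoter, with 6 cIEs, no cAE and no p300/CBP peak. The promoter windows of CXCL6, PF4V1, PF4, PPBP and CXCL5, which lie among the genes described here, held no peak of any list. CXCL1 itself had H3K4me3 over 2050 bp and H3K27ac over 1550 bp across its TSS, with 400 bp of Pol II. Its nearest p300/CBP peak lay 128010 bp and its nearest cAE 138760 bp away, the longest distance to a cAE among the 10 genes.

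CXCL3 and CXCL2, which lie 60.5 kb apart, had like promoters. H3K4me3 covered 2050 bp of the CXCL3 window and 2239 bp of that of CXCL2, H3K27ac 1900 and 2600 bp, and Pol II 900 and 750 bp. A long non-coding RNA gene on the opposite strand, ENSG00000289241, begins 0.208 kb upstream of the CXCL2 TSS, so that the marks of these promoters cannot be told apart. A CTCF peak spanned each TSS, with 250 bp at CXCL3 and 300 bp at CXCL2. Neither of these CTCF peaks held a match to the CTCF motif, which was found in 11 of the 39 CTCF peaks near the 10 genes, beside 17.0% of all CTCF peaks. The CTCF list is not labelled as background-subtracted. The genes also shared their neighbourhood, with 4 cAEs within 100 kb of both, of which 3 lay between CXCL2 and MTHFD2L on the upstream side of CXCL2. An H3K27ac region of 5950 bp there, 8.59 to 14.5 kb upstream of CXCL2 and 69.1 to 75 kb upstream of CXCL3, held 2 p300/CBP peaks and 2 Pol II peaks. The p300/CBP peaks lay in a gap of H3K4me1, between a region that ended where the first peak began and one that started further upstream, and so belonged to no cAE.

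**Figure D3:**
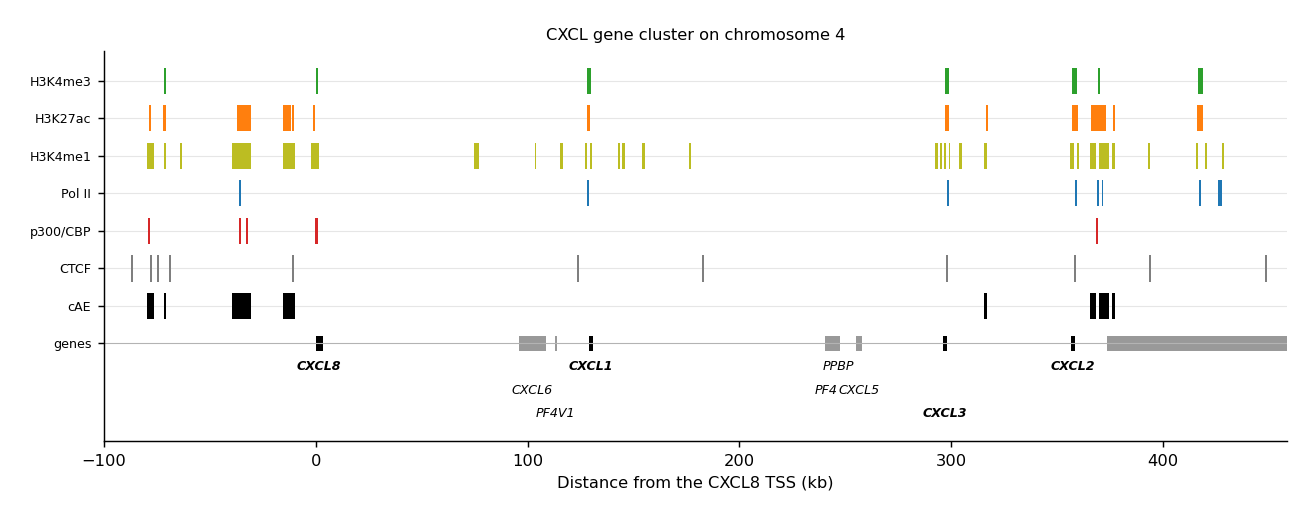
Peaks of the 6 lists, cAEs and protein-coding genes along the chemokine cluster of chromosome 4, by distance in kb from the CXCL8 TSS, with the genes described here in black and bold and other genes in grey. Narrow peaks are drawn at a minimum width. The p300/CBP peaks lie at and upstream of CXCL8 and beside CXCL2, the cAEs lie upstream of CXCL8, between CXCL3 and CXCL2 and beside CXCL2, and the stretch around CXCL1 has no cAE and no p300/CBP.

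A p300/CBP peak in the CXCL8 upstream cAE, chr4:74570351-74570451 (35.8 kb upstream of CXCL8), and the first of those near CXCL2, chr4:74974901-74975201 (9.99 kb upstream of CXCL2), lie in diverged copies of the same sequence and overlap in part. They are printed on the plus strand of hg19 with the AP-1 matches in capitals, 2 in each.
CXCL8 upstream peak: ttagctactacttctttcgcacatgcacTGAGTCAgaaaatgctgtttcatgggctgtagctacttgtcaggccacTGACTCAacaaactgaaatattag
CXCL2 upstream peak: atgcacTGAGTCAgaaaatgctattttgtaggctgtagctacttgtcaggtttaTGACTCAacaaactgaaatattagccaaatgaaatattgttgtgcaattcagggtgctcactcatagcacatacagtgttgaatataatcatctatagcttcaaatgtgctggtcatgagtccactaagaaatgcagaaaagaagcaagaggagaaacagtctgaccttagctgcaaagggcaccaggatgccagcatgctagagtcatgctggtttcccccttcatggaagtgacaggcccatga

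The 100 bases of the first aligned over 100 columns with 88 identical bases (88.0%) to chr4:74974879-74974978, which overlaps the second peak. The alignment extended on both sides to 1422 bp near CXCL8 and 1446 bp near CXCL2, with 1127 identical bases in 1476 columns (76.4%). Taken alone, the 300 bases of the CXCL2 upstream peak aligned over 304 columns with 231 identical bases (76.0%) to chr4:74570373-74570653. The copies shared 2 words of 32 bases. No further stretch of the 559 kb from 100 kb before CXCL8 to 100 kb after CXCL2 aligned to the first peak over at least 60 columns with at least 70% identity, and so none was found beside CXCL1. Over this length both copies carried p300/CBP, H3K27ac and Pol II peaks, but the Pol II peaks lay at different places of the alignment. The Pol II peak near CXCL8 overlapped the first p300/CBP peak, whereas the stretch aligned to that peak near CXCL2 had none. The second p300/CBP peak near CXCL2, of 200 bp, aligned with 77.6% identity to chr4:74570755-74570952, where the lists had H3K27ac and H3K4me1 but neither p300/CBP nor Pol II.

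IL1A and IL1B encode the interleukin-1 cytokines, of which IL-1α acts as an alarm signal of damaged cells and IL-1β is released after cleavage by the inflammasome. Both genes lie on the minus strand of chromosome 2, with TSSs 52.3 kb apart. An H3K4me1 region spanned each TSS, 1450 bp wide at IL1A and 1500 bp at IL1B, and no other list had a peak in either promoter window. The nearest H3K4me3 lay 16.2 kb from the IL1A TSS, and the nearest Pol II 19.2 kb, both beside CKAP2L, the neighbouring gene downstream, whose window carried H3K4me3, H3K27ac and Pol II.

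The neighbourhoods of these promoters nevertheless held many cAEs, most of those near IL1B being shared with IL1A. There were 11 within 100 kb of IL1A, where 1.91% of all genes had more, and 8 within 100 kb of IL1B, where 6.87% had more. The H3K27ac cover ranked lower, with 18.6 kb around IL1A and 13.6 kb around IL1B, where 24.2% and 36.5% of all genes had more. Some cAEs shared little with H3K27ac, such as chr2:113625201-113628601 with 550 of its 3400 bp. In the 45.3 kb between the IL1A TSS and the end of IL1B lay 3 cAEs, 2050, 2550 and 3500 bp wide, with 1300, 800 and 2400 bp of H3K27ac. None of these held p300/CBP, Pol II, H3K4me3 or CTCF. A further 3 cAEs lay 30.8 to 45.9 kb upstream of IL1B, and the farthest of these, chr2:113636851-113640301, held a p300/CBP peak of 100 bp at 44.4 kb.

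Other genes of the IL-1 family in the same cluster had no H3K4me3, H3K27ac or Pol II at the promoter window either. The promoter windows of IL37, IL36A, IL36B, IL36G, IL36RN and IL1RN held no peak, and that of IL1F10 held H3K4me1 alone. Between IL36G and IL1RN, over 161 kb, there was 1 cAE.

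**Figure D4:**
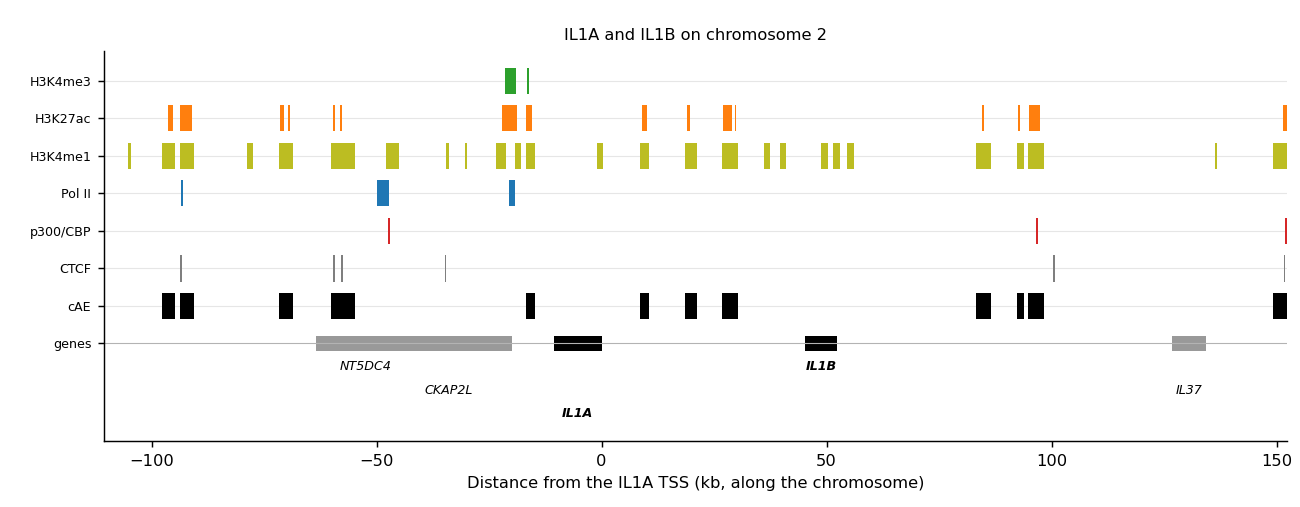
Peaks of the 6 lists, cAEs and protein-coding genes around IL1A and IL1B, by distance in kb from the IL1A TSS along the chromosome. Both genes are read from right to left, so positive values are upstream of IL1A. The TSSs carry H3K4me1 alone, and 3 cAEs stand between the genes.

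IL6 encodes a cytokine of the acute phase response that signals through gp130, the receptor subunit encoded by IL6ST. Its promoter carried H3K4me3 over 1350 bp and H3K27ac over 2350 bp across the TSS, with 200 bp of Pol II between positions -68 and 131 relative to the TSS. H3K4me1 flanked the TSS on both sides and left it free, ending 0.719 kb upstream and starting again 0.782 kb downstream. There were 3 CTCF peaks in or across the edge of the window, the closest 0.469 to 0.868 kb upstream. The antisense RNA gene IL6-AS1 begins 0.42 kb inside IL6, so that its marks and those of IL6 cannot be separated.

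Upstream of IL6 lay 5 of its 6 cAEs, and the sixth lay 3.28 kb downstream inside the gene. The nearest upstream cAE, chr7:22756601-22759501, lay 7.32 to 10.2 kb away, was 2900 bp wide with 2300 bp of H3K27ac, and held a p300/CBP peak of 300 bp within an intron of STEAP1B. A group of 4 cAEs stood 53.1 to 76.1 kb upstream, and the closest of these held the second p300/CBP peak, of 350 bp. The 200 bp upstream of the TSS (hg19, chr7:22766619-22766818, plus strand, NF-κB match in capitals at bases 73 to 64 upstream) and the nearer p300/CBP peak (chr7:22757751-22758051, plus strand, AP-1 match in capitals) are shown because they are the marked promoter and the nearest p300/CBP element of the gene.
IL6: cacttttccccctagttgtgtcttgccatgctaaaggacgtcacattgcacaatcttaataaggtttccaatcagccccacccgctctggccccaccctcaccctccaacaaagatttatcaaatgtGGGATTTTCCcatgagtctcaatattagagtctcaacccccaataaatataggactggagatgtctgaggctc
IL6 upstream peak: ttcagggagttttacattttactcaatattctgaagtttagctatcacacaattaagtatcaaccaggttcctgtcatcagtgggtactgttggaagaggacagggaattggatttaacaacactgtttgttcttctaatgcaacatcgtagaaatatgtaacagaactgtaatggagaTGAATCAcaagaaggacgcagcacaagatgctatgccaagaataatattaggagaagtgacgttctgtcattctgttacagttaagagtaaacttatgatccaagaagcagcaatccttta

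LIF and IL11 encode further cytokines that signal through gp130, and LIF is known for holding stem cells undifferentiated. At LIF the TSS stood in the middle of broad regions, an H3K4me1 region of 24200 bp and a Pol II region of 23350 bp, chr22:30630951-30654301, which ran past the gene at both ends. Yet the promoter window had neither H3K4me3 nor H3K27ac. An H3K27ac region of 10500 bp began 1.85 kb upstream of the TSS, and within it an H3K4me3 region of 7400 bp began 4.3 kb upstream, while another H3K27ac region of 6250 bp lay on the downstream side from 5.9 kb. LIF-AS1 and LIF-AS2, long non-coding RNA genes on the opposite strand, begin 7.57 and 0.554 kb downstream of the TSS, and their Pol II cannot be told apart from that of LIF.

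Around LIF the H3K27ac cover was the longest of the 10 genes, at 42.7 kb of the gene and 100 kb either side, and 2.30% of all genes had more. The 7 p300/CBP peaks, all 33.8 to 51.3 kb downstream, were exceeded at 1.60% of all genes. A cAE of 14150 bp, chr22:30597851-30612001, was the widest of the 37 and held 4 of these peaks, together with 7750 bp of Pol II. The TSS of a long non-coding RNA gene, ENSG00000225676, lies inside it, 39.6 kb downstream of the LIF TSS. The 3 kb around that TSS held 1650 bp of H3K4me3, 3000 bp of H3K27ac and 700 bp of p300/CBP. This cAE therefore cannot be told apart from the promoter of that gene. The neighbouring OSM gene, which encodes the related oncostatin M, had no peak in its window.

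At IL11, H3K4me3 covered 2220 bp of the window, H3K27ac 2370 bp and Pol II 2020 bp, the largest Pol II cover after LIF. No p300/CBP peak lay within 100 kb, and the nearest was 160081 bp away. The H3K27ac cover of 27.1 kb in the neighbourhood lay mostly at the promoters of other genes, such as RPL28 and UBE2S, and 3 cAEs were found. An H3K27ac region of 3550 bp lay 1.77 to 5.32 kb upstream of the IL11 TSS and held an H3K4me3 region of 1200 bp. It was not counted in a cAE, since its H3K4me1 region of 6100 bp reached the IL11 promoter window. CCL5, an attractant of T cells, had no mark in its window, with H3K27ac no nearer than 50.1 kb and p300/CBP no nearer than 291 kb. Its single cAE, 65.6 kb downstream, lay inside TAF15. Of its 3700 bp, 150 bp were shared with H3K27ac, at the end of a 4500 bp region across the TAF15 promoter.

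AP-1 matches were found in 10 of the 19 p300/CBP peaks near the 10 genes, beside 28.1% of all 13984 p300/CBP peaks. Among p300/CBP peaks in cAEs, the counts were 7 of 12 near the 10 genes beside 43.8% of all. An NF-κB match was found in 1 of the 19, beside 1.53% of all p300/CBP peaks. Of the 37 cAEs, 8 held p300/CBP (21.6%, beside 20.6% of all 24323 cAEs), 11 held Pol II (29.7%, beside 21.0%), 8 held CTCF (21.6%, beside 16.4%) and 12 held H3K4me3 (32.4%, beside 34.2%). Their median width was 3150 bp, beside 2550 bp. The authors reported fewer p300/CBP peaks than the deposited list holds. With RefSeq promoters they also reported more cAEs and fewer cIEs than were counted here, so the sets differ from theirs.

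Related genes were described by lists. Of all genes, 61.4% had H3K27ac at the promoter window and 28.0% had no peak there. Of 14 other CXC and CX3C chemokine genes none had H3K27ac at the promoter window and 12 had no peak at all, and of 23 other CC chemokine genes CCL2 and CCL26 had H3K27ac and 16 had no peak. IL18 was marked by H3K27ac among 9 other genes of the IL-1 family, and CLCF1 and CTF1 among 6 of the IL-6 family. Among 12 other cytokine genes 7 carried H3K27ac, CSF1, CSF2, CSF3, IL12A, IL12B, IL15 and IL24, and those of CSF2, the gene of the growth factor GM-CSF, and IL24 had p300/CBP in the window and no Pol II, as CXCL8 did.

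Receptor genes were split. H3K27ac marked the promoter windows of IL6R, IL6ST, LIFR, IL11RA and IL1RAP, the last of which encodes the shared subunit of the IL-1 receptor, while IL1R1, IL1R2, CXCR1, CXCR2, CCR1 and CCR3 had none. All 19 genes of the NF-κB pathway and of related regulators carried H3K4me3, H3K27ac and Pol II, beside 56.2% of all genes. Those with the most H3K27ac in the gene and 100 kb either side were FOSL1, which encodes the AP-1 protein Fra-1 (44.3 kb), SOCS3, an inhibitor of cytokine signalling (42.6 kb), JUN (36.6 kb), CEBPB (36.5 kb) and RELA (35.1 kb).

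The label of the cells was checked against marker genes. H3K27ac was present at the windows of all 5 markers of mesenchymal and basal B lines (VIM, CD44, EGFR, CAV1 and AXL), at 1 of 5 luminal markers (FOXA1), at 0 of 5 leukocyte markers and at 1 of 2 endothelial markers (CDH5, with 193 bp). Among all genes the share was 61.4%.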

How the data were processed

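Libraries of H3K4me3, H3K27ac, H3K4me1, Pol II and CTCF (2 each) and of p300/CBP (1, from pooled immunoprecipitations) were represented by 6 deposited lists of peak positions in base pairs on hg19. The 2 libraries of input chromatin were not used here. The lists of H3K4me1, H3K4me3, H3K27ac and p300/CBP are labelled as scaled and background-subtracted. That of Pol II is labelled as scaled only and that of CTCF as neither, so the thresholds may not compare between lists. For alignment the authors used BWA-backtrack according to their methods, whereas the submitters' processing notes name Bowtie2, and reads that mapped once were binned per 50 bp in PASHA. After the libraries had been merged, bins above a threshold were joined into peaks by the authors in IGB. Thresholds were 30 (H3K4me1, H3K4me3), 50 (H3K27ac, Pol II, CTCF) and 60 (p300/CBP), and gaps were joined up to 1000 bp (H3K4me1), 800 bp (Pol II), 500 bp (H3K27ac, H3K4me3) and 50 bp (p300/CBP, CTCF), so that long H3K4me1 and Pol II regions can hold unmarked stretches. The deposited lists give no other value, so depth per library and the spread between replicates are unknown, and no test was made.

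The end of each interval was taken as the first base after the peak. The GRCh37 genome and GENCODE release 44 were used, with 1 canonical TSS per protein-coding gene and 25 chromosomes checked against the lists (2 peaks on chromosome M end past the reference). Intervals were compared with Python 3.11.15 and NumPy 2.4.6, sequences were aligned with Biopython 1.88, and figures were drawn with matplotlib 3.10.9. Functions on intervals were tested with simulated intervals. The genes, the lists of related genes and the rule for naming them (all 10 genes, their neighbours within 100 kb, and of each list the genes with H3K27ac at the window, or the 5 with the most H3K27ac where more than 12 had it) were chosen with earlier results of these data known. The copies of p300/CBP peak sequences were searched for after the sequences had been seen. Of the receptor genes, 1 is not reported here. Of the marker genes, PECAM1 was not matched in the annotation. Alternatives changed the window, the TSS, the overlap, the width of peaks kept, the flank and the definition of cAEs.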

Additional observations from a re-analysis of the deposited data

How the results depend on the processing

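No paired analysis was possible because each list was called on merged libraries and holds no value per replicate, which also means that the effect of leaving out a replicate could not be computed. Of 51 alternatives to 12 counts or medians, 40 stayed within 1.5 times the value given and 11 moved further. With a 1 kb window 4 of the 10 genes had H3K4me1 in place of 9, since IL6, CXCL1, CXCL2, CXCL3 and IL11 were lost, where the mark flanks the TSS. When only peaks of the median width or more were kept, 3 genes kept Pol II in place of 6 (CXCL1, CXCL2 and IL6 were lost), H3K4me3 and H3K27ac were lost at CXCL8, and 19 cAEs were left in place of 37. With a flank of 25 kb, 3 genes had p300/CBP (IL6, CXCL8 and CXCL2) in place of 7, and 15 cAEs and 5 p300/CBP peaks were counted in place of 37 and 19. With a flank of 50 kb, 23 cAEs were counted. The number of cAEs rose to 67 when promoter windows were not left out and fell to 20 when H3K27ac had to cover at least 50% of the region. The median H3K27ac cover was 5950 bp at 25 kb and 8875 bp at 50 kb, in place of 13846.5 bp, since less sequence was counted. With a 10 kb window LIF gained H3K4me3 and H3K27ac.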
